A study of Mus musculus with 35 samples.

Results

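The claudin and tight junction genes comprised 9 mouse genes, named by symbol and matched to their Ensembl identifiers in the deposited table of 33292 genes. They were 5 claudins (Cldn5, Cldn1, Cldn3, Cldn4 and Cldn7), occludin (Ocln), zonula occludens 1 (Tjp1), junctional adhesion molecule A (F11r) and cingulin (Cgn), and each symbol matched exactly 1 row. The values were TPM, transcript abundances per gene length that sum to the same total in every mouse. They came from RNA sequencing of podocytes of 35 mice that carried an rtTA transgene expressed in podocytes, a tetO::Cre transgene and the mTmG reporter, so that doxycycline switched on Cre recombinase and with it green fluorescence in podocytes. Every mouse also carried a floxed Lmx1b allele, which Cre inactivates. The other allele was intact in the control mice (genotype label WT, described for the series as Lmx1b+/lox). In the knock-in mice it carried a missense change in a LIM domain. This was H77L in the Lmx1b H77L/lox line and C118F in the Lmx1b C118F/lox line. After recombination the control podocytes were thus left with a single intact allele, and the knock-in podocytes with the missense allele only. The mice were 7 to 10 weeks old, received 2 mg/ml doxycycline in the drinking water and were injected every other day with 0.3 µg bortezomib per g body weight, a proteasome inhibitor, or with its solvent DMSO. Green podocytes were sorted on day 7. Each of the 6 groups held 6 mice, except for the bortezomib-treated C118F/lox group with 5.

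Tight junctions seal the space between neighbouring epithelial or endothelial cells. Their strands are built of claudins, with occludin and junctional adhesion molecules beside them in the membrane, and the scaffold proteins zonula occludens and cingulin tie the strands to actin. Mature podocytes are joined by slit diaphragms instead of continuous tight junctions, but their foot processes carry claudin-5, which is also the main claudin of many endothelial cells. Claudin-1 is best known in the kidney from the parietal cells of Bowman's capsule, whereas claudin-3, claudin-4, claudin-7 and occludin are typical of tubule and collecting duct cells. The study picked claudin-5 for staining from these same libraries, so the direction of Cldn5 given here is not independent evidence.

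The mice yielded 5268863 to 24147833 reads in genes, with a median of 19166695, as recovered from the steps of the TPM values. The shallowest library was replicate 2 of the bortezomib-treated C118F/lox mice. Lmx1b itself lay between 44.8 and 89.7 TPM in DMSO-treated control mice, between 89.9 and 139 in H77L/lox and between 37.4 and 185 in C118F/lox mice, and gene totals cannot separate mutant from intact transcripts. All 10 podocyte markers examined had a median above 1 TPM in every group. Their summed level ran from 22754 to 37611 TPM in DMSO-treated control mice against 5708 to 10101 in H77L/lox and 5345 to 12347 in C118F/lox mice. Among the libraries that stood apart in markers of other cells were replicate 2 of the DMSO-treated control mice, with 1128 TPM of 9 distal nephron and collecting duct markers where the other mice of that group reached 63.3, and replicate 1 of the DMSO-treated C118F/lox mice, whose 2289 TPM of 6 mesangial and smooth muscle markers were mostly renin (Ren1, 2166 TPM). Others were replicate 1 of the DMSO-treated control mice (424 TPM of leukocyte markers, the next mouse 75.4), replicate 5 of the DMSO-treated H77L/lox mice (376 TPM of proximal tubule markers, the next 13.5) and replicate 2 of the bortezomib-treated control mice (364 TPM, the next 84.2). Leaving out any of these last 3 kept the calls of the expressed members against control, except for Tjp1 in bortezomib-treated C118F/lox mice.

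Cldn5 was by far the most abundant member in control podocytes and fell steeply in both knock-in lines. Its level in DMSO-treated control mice was 1328 TPM at the lowest, 1814 at the median and 1997 at the highest, which placed its mean at rank 50 of 20014 expressed genes. In DMSO-treated H77L/lox mice the corresponding values were 25, 79.8 and 100 TPM, and in C118F/lox mice they were 49.3, 59.2 and 152 TPM. No knock-in mouse came near the lowest control mouse. The mean level was thus 1755 ± 236 TPM (SD, n = 6) in control, 76.4 ± 27.4 (n = 6) in H77L/lox and 83.1 ± 44.2 (n = 6) in C118F/lox mice, 23-fold lower in the former and 21.1-fold lower in the latter line. On the log2(TPM + 1) scale, on which all log2 fold changes are given, Cldn5 fell by 4.61 (SE 0.26, limma adjusted p = 1.18e-08) in H77L/lox and by 4.52 (SE 0.25, adjusted p = 2.21e-08) in C118F/lox mice. Both fits used the same 6 control mice. Cldn5 had the highest claudin level in all 6 DMSO-treated control mice, but in only 2 of 6 H77L/lox and 3 of 6 C118F/lox mice.

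Under bortezomib, Cldn5 was again low in both knock-in lines. Bortezomib-treated control mice ranged from 1232 to 1783 TPM with a median of 1594. The 6 bortezomib-treated H77L/lox mice held 89, 117, 162, 134, 127 and 149 TPM. The 5 bortezomib-treated C118F/lox mice held 103, 84.8, 52.4, 43.6 and 68.8 TPM. Again no knock-in mouse overlapped a control mouse, and Cldn5 fell by 3.61 (SE 0.13, adjusted p = 2.66e-11) in H77L/lox and by 4.52 (SE 0.19, adjusted p = 1.39e-09) in C118F/lox mice against bortezomib-treated controls, which are 12.2-fold and 22.4-fold lower means.

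**Figure D1:**
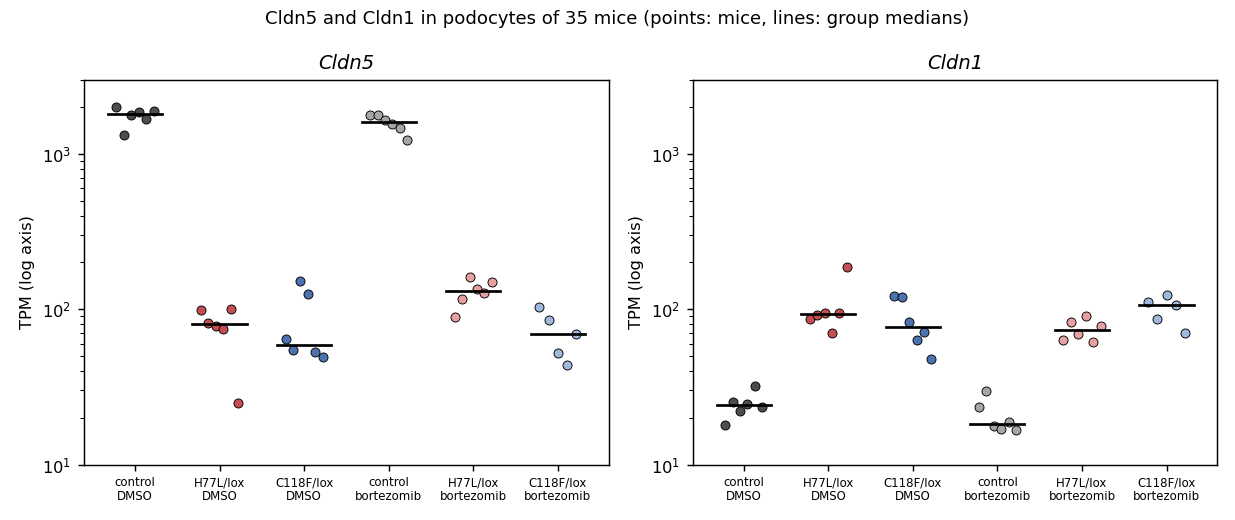
TPM of Cldn5 and Cldn1 (log axis) in each of the 35 mice by genotype and treatment, with points for mice and lines for group medians. Every knock-in mouse lies below every control mouse for Cldn5 (highest 162 against lowest 1232 TPM) and above every control mouse for Cldn1 (lowest 47.6 against highest 32.2 TPM).

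Markers of other cells were set beside these values. In the DMSO-treated control mice, where Cldn5 was at 1328 TPM or more, the endothelial markers Pecam1 and Cdh5 reached at most 3.52 and 2.88 TPM, and the sum of 9 endothelial markers ranged from 16.6 to 75.1 TPM, with 14.3 to 21.1 TPM of Ehd3. The same sum was 13.5 to 35.4 TPM in DMSO-treated H77L/lox and 17.5 to 181 in C118F/lox mice, the highest in the replicate with high renin. The podocyte marker Nphs1, which encodes nephrin of the slit diaphragm, had medians of 210, 167 and 157 TPM in DMSO-treated control, H77L/lox and C118F/lox mice. The ratio of Cldn5 to Nphs1 ranged from 6.03 to 14.5 in DMSO-treated control mice, from 0.217 to 0.569 in H77L/lox and from 0.32 to 0.989 in C118F/lox mice. By these medians the level of Cldn5 fell further than that of Nphs1, a difference that was not tested. As a share of the summed 10 podocyte markers, Cldn5 made up 5.04% to 7.09% in DMSO-treated control, 0.438% to 1.03% in H77L/lox and 0.48% to 1.7% in C118F/lox mice, a smaller fall than that of its ratio to Nphs1. In bulk RNA, fewer podocytes in a sort and less RNA per podocyte cannot be told apart, and the part of the podocyte markers in the change of Cldn5 was not tested.

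Cldn1 moved in the opposite direction. DMSO-treated control podocytes held 18 TPM at the lowest, 24 at the median and 32.2 at the highest. DMSO-treated H77L/lox mice held 86.5, 91.4, 95.2, 70.4, 94.7 and 187 TPM, and C118F/lox mice 122, 120, 83.1, 63.8, 71.6 and 47.6 TPM. All 12 knock-in mice were above all 6 control mice, and Cldn1 was 4.3-fold higher in the mean of H77L/lox (log2 fold change 2.01, SE 0.19, adjusted p = 1.83e-06) and 3.49-fold higher in that of C118F/lox mice (1.70, SE 0.21, adjusted p = 3.39e-05). Under bortezomib, control mice ranged from 16.8 to 29.8 TPM, H77L/lox mice from 61.7 to 91.1 and C118F/lox mice from 70.6 to 123. The differences from bortezomib-treated controls were 1.82 (SE 0.14, adjusted p = 1.72e-07) in H77L/lox and 2.22 (SE 0.17, adjusted p = 4.38e-07) in C118F/lox mice.

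The summed parietal cell markers of control and knock-in mice overlapped. The sum of these 8 markers ranged from 15.7 to 86.8 TPM in DMSO-treated control, from 24 to 50.7 in H77L/lox and from 23.5 to 47.8 in C118F/lox mice. Pax2, which defines parietal and collecting duct epithelium, was at 0 in 25 of 35 mice and at most 0.556 TPM. Pax8, a further marker of the list, was at 10.3 to 20.8 TPM in DMSO-treated control, 21 to 35.1 in H77L/lox and 22.5 to 34.6 in C118F/lox mice. Krt18, Krt8, Prom1 and Cd24a of the list went the other way, with medians of 5.29, 2.46, 1.46 and 5.07 TPM in DMSO-treated control mice. Their medians were 1.39, 0.541, 0.126 and 3.39 TPM in H77L/lox and 0, 0.192, 0.32 and 2.09 in C118F/lox mice. Vcam1 and Scin had medians at or below 0.939 TPM in these groups. The part of parietal cells in the Cldn1 values was not tested. Pdgfrb, listed here as a mesangial marker, was also higher in the knock-in mice (144 to 544 and 64.1 to 277 TPM against 9.28 to 22.1). Myh11 of the same list had medians of 1.05 TPM in DMSO-treated H77L/lox, 0.472 in C118F/lox and 0.099 in control mice. In the same order the medians were 7.1, 2.67 and 6.21 TPM for Ren1 and 0.739, 0.0775 and 0.715 for Rgs5. Gata3 and Itga8 of this list stayed at or below 5.18 TPM in all of these mice.

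The genes for both claudins lie on chromosome 16 of GRCm39, Cldn5 at chr16:18595597-18597012 on the plus strand and Cldn1 at chr16:26175392-26190596 on the minus strand. The 250 bases before each annotated start are shown because these 2 claudin genes among the members changed in opposite directions, and because Lmx1b is a homeodomain protein. Capitals mark every TAAT on either strand, the short core that homeodomain proteins commonly bind, and the sequences are read 5′ to 3′ on the strand of the gene.
Cldn5, chr16:18595347-18595596: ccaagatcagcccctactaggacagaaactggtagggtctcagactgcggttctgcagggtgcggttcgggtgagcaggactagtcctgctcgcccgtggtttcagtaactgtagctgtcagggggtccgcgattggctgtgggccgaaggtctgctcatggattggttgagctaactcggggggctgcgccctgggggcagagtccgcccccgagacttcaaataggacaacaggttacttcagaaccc
Cldn1, chr16:26190597-26190846: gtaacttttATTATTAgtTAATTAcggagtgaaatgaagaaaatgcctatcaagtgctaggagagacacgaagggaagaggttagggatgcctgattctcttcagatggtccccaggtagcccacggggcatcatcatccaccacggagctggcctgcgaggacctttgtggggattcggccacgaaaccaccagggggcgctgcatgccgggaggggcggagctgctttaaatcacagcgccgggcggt
The Cldn1 window held 4 matches to this core, of which a pair formed the palindrome TAATTA, 232 bases before the start, and the Cldn5 window held none. Of 21636 windows of the same length before protein-coding genes, 55.2% held the core and 5.18% the palindrome on either strand. None of the windows of the other 7 members held the core. CANNTG, the core of an E-box, occurred 2 times before Cldn1, 0 times before Cldn5 and in 64.8% of all windows. The GC content was 59.6% before Cldn5 and 54.8% before Cldn1, against a median of 53.2% over all windows. These are matches of letters and not measured binding sites.

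The opposite moves changed the make-up of the claudin transcripts. Of 34 claudin genes in the table, 13 were at 0 in every mouse and 4 exceeded 1 TPM in every mouse of at least 1 group, namely Cldn5, Cldn1, Cldn12 and Cldn15. Cldn5 made up 83.8% to 95.9% of the summed claudin TPM in DMSO-treated control mice, with a median of 95.2%. In DMSO-treated H77L/lox mice its share was 7.48% to 38.2% with a median of 29.9%, and in C118F/lox mice 22% to 47.8% with a median of 26.6%. The share of Cldn1 went from a median of 1.23% in control to 32.1% in H77L/lox and 30.1% in C118F/lox mice. The rise of Cldn1 did not make up for the loss of Cldn5 in amount, because the summed claudin level had medians of 1905, 291 and 262 TPM in these groups.

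Under bortezomib, the share of Cldn5 was 91.5% to 95.4% in control, 36.1% to 56.7% in H77L/lox and 23.1% to 35.5% in C118F/lox mice. The ratio of Cldn5 to Cldn1 ranged from 1.41 to 2.33 in bortezomib-treated H77L/lox mice and from 0.412 to 0.986 in bortezomib-treated C118F/lox mice, so that these groups did not overlap. DMSO-treated mice of both lines spread wider, from 0.134 to 1.15 in H77L/lox and from 0.456 to 1.97 in C118F/lox mice. Cldn5 was the highest claudin in all 6 bortezomib-treated H77L/lox mice and in 0 of 5 bortezomib-treated C118F/lox mice. In replicates 1, 2 and 5 of the latter Cldn5 was close behind Cldn1, at ratios of 0.93, 0.986 and 0.973. The differences in share and ratio between the groups were not tested.

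**Figure D2:**
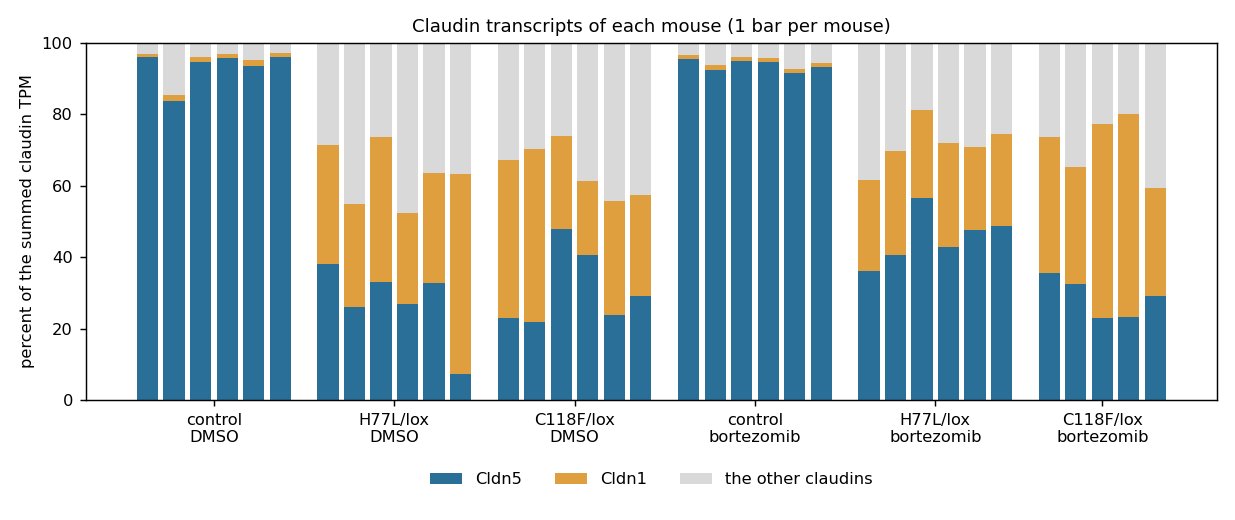
Share of Cldn5, Cldn1 and the other claudins in the summed claudin TPM, in percent, with 1 bar per mouse. Cldn5 fills 83.8% or more of each control bar and at most 56.7% of any knock-in bar.

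Tjp1 and F11r, a scaffold and a membrane protein that many epithelial and endothelial cells share, were expressed in all groups, with smaller log2 fold changes against control than Cldn5 and Cldn1. F11r encodes an immunoglobulin-like adhesion molecule that recruits polarity proteins to the junction. It ranged from 260 to 334 TPM in DMSO-treated control mice with a median of 279, from 165 to 233 in H77L/lox with a median of 192, and from 175 to 256 in C118F/lox mice with a median of 199. Under bortezomib the ranges were 261 to 314 TPM in control, 185 to 223 in H77L/lox and 173 to 191 in C118F/lox mice. Under either treatment no knock-in mouse reached the lowest control mouse. F11r fell by 0.60 (SE 0.10, adjusted p = 2.55e-04) and by 0.50 (SE 0.11, adjusted p = 0.00452) in DMSO-treated H77L/lox and C118F/lox mice, and by 0.53 (SE 0.07, adjusted p = 4.15e-05) and 0.67 (SE 0.08, adjusted p = 3.03e-05) in the bortezomib-treated mice of these lines.

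Tjp1, which encodes the scaffold zonula occludens 1, was spread widely within groups. DMSO-treated control mice held 166, 232, 253, 247, 343 and 201 TPM, and DMSO-treated H77L/lox mice held 358, 623, 385, 427, 388 and 361 TPM. These groups did not overlap, and Tjp1 was higher in H77L/lox mice by 0.82 (SE 0.17, adjusted p = 0.00119). DMSO-treated C118F/lox mice held 147, 249, 346, 194, 476 and 607 TPM, reached both below and above the control mice, and differed by 0.35 (SE 0.30, 95% interval -0.28 to 0.98, adjusted p = 0.4). Under bortezomib the difference from control was 0.23 (SE 0.20, 95% interval -0.20 to 0.66, adjusted p = 0.461) in H77L/lox mice. It was 0.72 (SE 0.23, adjusted p = 0.0315) in C118F/lox mice, of which 4 of 5 lay above every bortezomib-treated control mouse. This last call was lost in 9 of 18 alternative fits, with adjusted p from 0.00641 to 0.61 over all of them. With the mouse number as covariate the difference was 0.21 (adjusted p = 0.61). The call was also lost without a filter (0.0918) and in the fits without control replicates 1, 2 or 3 (adjusted p = 0.054, 0.0548 and 0.0669) and without C118F/lox replicates 2, 3, 4 or 5 (0.063, 0.0739, 0.0701 and 0.0733).

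The order of the levels differed between genotypes. In DMSO-treated control mice Cldn5 led, followed by F11r and Tjp1, whose ranges overlapped, and then Cldn1. In DMSO-treated H77L/lox mice Tjp1 (358 to 623 TPM) exceeded F11r (165 to 233 TPM) in every mouse, while Cldn1 (70.4 to 187 TPM) overlapped both F11r and Cldn5. In C118F/lox mice the ranges of Tjp1 and F11r overlapped under DMSO and not under bortezomib (276 to 552 and 173 to 191 TPM).

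Cgn, which encodes cingulin, a scaffold that binds zonula occludens proteins, was low in control podocytes and higher in the knock-in lines. DMSO-treated control mice ranged from 0.925 to 1.58 TPM, H77L/lox mice from 3.45 to 6.02 and C118F/lox mice from 4.04 to 6.37, on 30 to 41, 117 to 241 and 140 to 195 reads a mouse. The log2 fold change was 1.49 in H77L/lox (adjusted p = 5.81e-06, and 8.39e-05 without the filter on low values) and 1.56 in C118F/lox mice (adjusted p = 9.69e-06, and 1.39e-04 without the filter). Under bortezomib, control mice ranged from 0.337 to 1.36 TPM, H77L/lox mice held 2.57, 3.57, 1.58, 1.64, 2.31 and 0.704 TPM, and C118F/lox mice held 4.33, 5.42, 2.04, 3.44 and 4.99 TPM. The difference from bortezomib-treated control mice was 1.49 (SE 0.24, adjusted p = 3.22e-04, and 0.00212 without the filter) in C118F/lox mice. Cgn entered these fits only through the knock-in mice, because the filter asked for more than 1 TPM in every mouse of at least 1 group compared. Neither bortezomib-treated group passed it for H77L/lox against control, and without the filter that difference was 0.76 (SE 0.24, adjusted p = 0.0706).

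**Figure D3:**
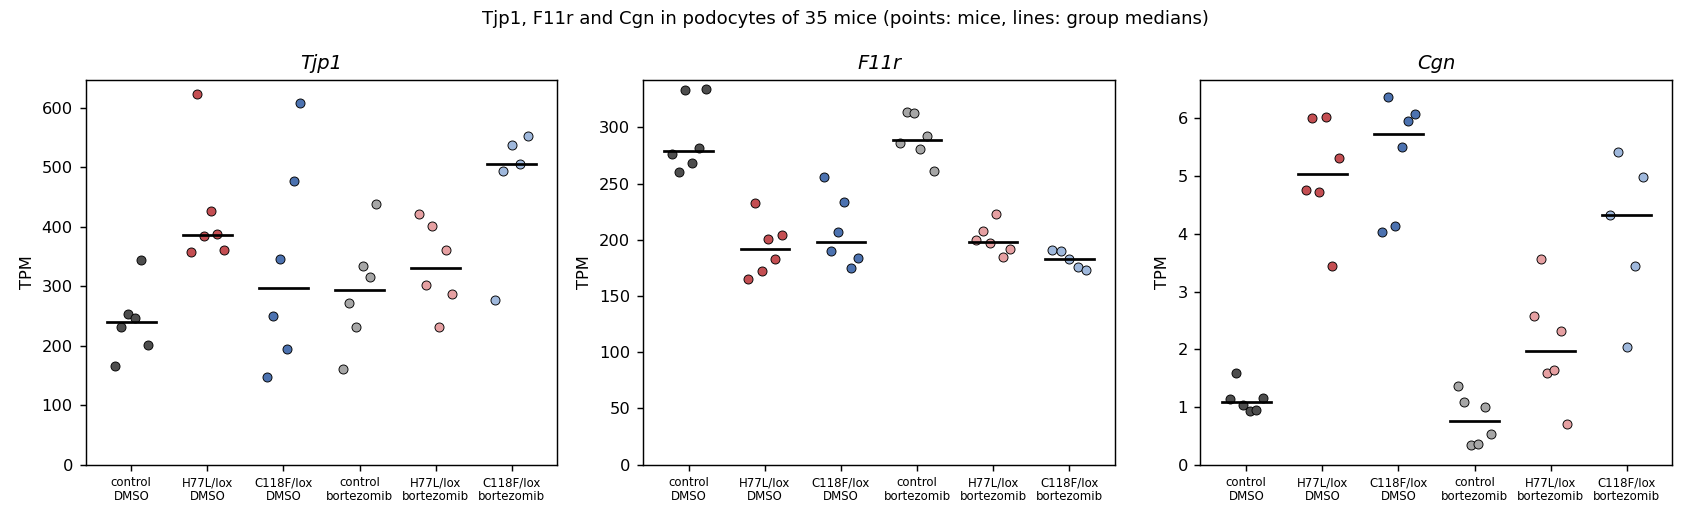
TPM of Tjp1, F11r and Cgn in each of the 35 mice by genotype and treatment, with points for mice and lines for group medians, each axis starting at 0. F11r separates control from knock-in mice under both treatments, Cgn under DMSO, and the Tjp1 values of C118F/lox mice under DMSO span 147 to 607 TPM.

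Cldn3, Cldn4, Cldn7 and Ocln, typical of tubule and collecting duct cells, were at or near 0 in most mice of every genotype and treatment. They drew 61, 159, 340 and 267 reads over all 35 mice and were at 0 in 21, 17, 7 and 14 mice. None exceeded 1 TPM in every mouse of any group, so none entered a fit. The group medians reached at most 0.369 TPM for Cldn3, 0.438 for Cldn4, 0.814 for Cldn7 and 0.708 for Ocln. Cldn3 had no read in the 5 bortezomib-treated C118F/lox mice. A count of 0 allows up to 3 reads a mouse, which for Cldn3 corresponded to 0.359 to 1.63 TPM over the 35 libraries (counting error only).

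The highest value of each of these genes came from a mouse with high tubule markers. Replicate 2 of the DMSO-treated control mice had the highest Cldn7 (8.3 TPM, 66 reads), Ocln (5.05 TPM, 87 reads) and Cldn3 (1.56 TPM, 8 reads) of all mice and the highest distal nephron and collecting duct markers. Replicate 2 of the bortezomib-treated control mice had the highest Cldn4 (5.77 TPM, 66 reads) and was the next in both Cldn7 (5.29 TPM) and these markers (205 TPM). Other high values came from mice with few such markers, among them Cldn3 at 1.49 TPM in replicate 6 and Cldn7 at 2.31 TPM in replicate 1 of the DMSO-treated H77L/lox mice, with 11.6 and 0.838 TPM of distal nephron and collecting duct markers. The markers Umod and Aqp2 of the loop of Henle and the collecting duct had medians of 16.2 and 2.37 TPM in DMSO-treated control mice and maxima of 416 and 103. The part of tubule cells in the values of Cldn3, Cldn4, Cldn7 and Ocln was not tested. Without a filter, the log2 fold changes of these genes in the knock-in lines against control ran from -0.79 to 0.01, and the lowest adjusted p was 0.191, for Ocln in C118F/lox mice under DMSO.

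**Figure D4:**
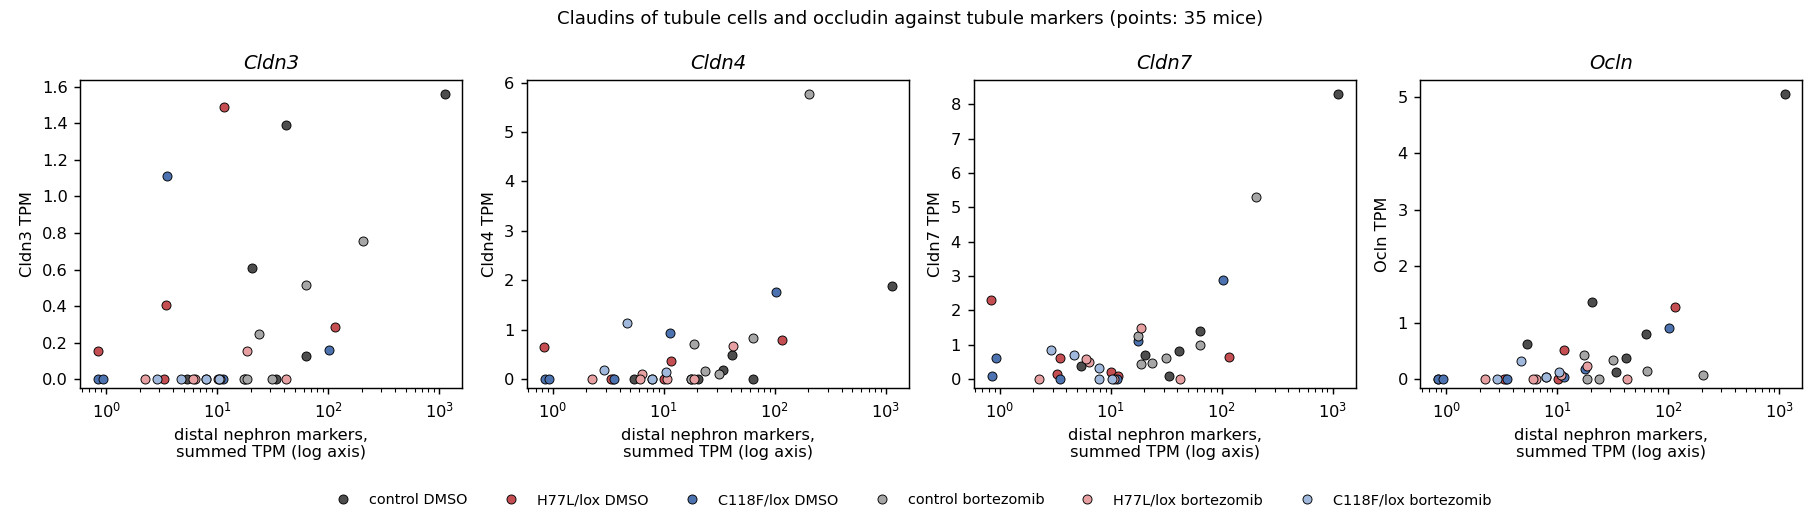
TPM of Cldn3, Cldn4, Cldn7 and Ocln against the summed TPM of 9 distal nephron and collecting duct markers (log axis), with 1 point per mouse coloured by group. The point farthest to the right, at 1128 TPM of markers, is replicate 2 of the DMSO-treated control mice and is the highest for Cldn3, Cldn7 and Ocln.

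Counted over the members, Cldn5 and F11r were called lower and Cldn1 and Tjp1 higher in H77L/lox against control mice under DMSO. Cgn was also called higher, but entered this and the other fits against control only through the group where it was high, so it is left out of the counts here. In that comparison 22.4% of all genes tested were called higher and 22.4% lower, so that calls were common in this comparison. Apart from Cgn, these 4 members were the only ones tested against control. In C118F/lox against control mice under DMSO, 2 of the 4 were lower and 1 was higher, beside 16.6% and 13.7% of all genes. Under bortezomib, H77L/lox mice had 2 of the 4 lower and 1 higher, beside 11% and 12.5% of all genes. C118F/lox mice had 2 of the 4 lower and 2 higher, beside 12.4% and 15.1%. The cutoffs of the study, which ask for more than 2 in absolute log2 fold change with adjusted p below 0.001, were passed by Cldn5 in all 4 comparisons and by Cldn1 in H77L/lox mice under DMSO and in C118F/lox mice under bortezomib. The shares of all genes past these cutoffs were 2.17%, 2.27%, 1.2% and 1.93% in H77L/lox and C118F/lox mice under DMSO and then under bortezomib. C118F/lox and control mice under DMSO were also compared without the control library with high distal nephron markers and the C118F/lox library with high renin. This fit gave -4.55 for Cldn5, 1.68 for Cgn, 0.55 for Tjp1 and -0.59 for F11r. Cldn1 was again called higher (adjusted p = 1.82e-04). As with all mice, its log2 fold change stayed below the cutoff of 2 used by the study. Cldn5, Cldn1, Cgn and F11r were thus called at adjusted p under 0.05 as before. Without the control library, H77L/lox mice gave -4.69 for Cldn5, 2.02 for Cldn1, 1.55 for Cgn, 0.82 for Tjp1 and -0.63 for F11r.

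The response to bortezomib was compared within each genotype, which addresses whether proteasome inhibition shifts these genes. In control mice 0 of the 4 members tested were called, beside 0% of all 10659 genes (923 at an unadjusted p under 0.05, and 0 with limma voom on recovered reads). The difference was -0.15 for Cldn5 (95% interval -0.42 to 0.11), -0.24 for Cldn1 (-0.58 to 0.11), 0.25 for Tjp1 (-0.20 to 0.69) and 0.00 for F11r (-0.19 to 0.19). In C118F/lox mice 0 of 5 members were called, beside 0% of all genes (634 of 10814 at an unadjusted p under 0.05, and 0 with limma voom), and the intervals were wide, from -0.83 to 0.52 for Cldn5 and from -0.08 to 1.32 for Tjp1.

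In H77L/lox mice 1 of 5 members was called, beside 1.16% of all genes. The log2 fold change of Cgn under bortezomib was -1.03 (SE 0.22, adjusted p = 0.0387), from 5.04 ± 0.965 TPM (SD, n = 6) to 2.06 ± 0.984 TPM (SD, n = 6), with 5 of 6 bortezomib-treated mice below every DMSO-treated mouse. Cgn entered this fit only through the DMSO-treated mice, where it was higher, and without the filter the adjusted p was 0.112, with 0 of 20941 genes called. The call was lost in 11 of 19 alternative fits, with adjusted p from 0.0238 to 0.112. Leaving out DMSO replicates 2, 3, 4 or 6 gave 0.0843, 0.0513, 0.0936 and 0.0525, and leaving out bortezomib replicates 2 to 6 gave 0.0511 to 0.0913. Cldn5 was higher by 0.85 under bortezomib in H77L/lox mice (SE 0.27, limma adjusted p = 0.104), with 5 of 6 bortezomib-treated mice above every DMSO-treated mouse, and did not pass the threshold. Leaving out the DMSO-treated mouse with 25 TPM brought this difference to 0.56 (SE 0.13, adjusted p = 0.0611). Cldn1 (-0.42, adjusted p = 0.216) and Tjp1 (-0.35, adjusted p = 0.233) were lower and F11r was close to level (0.06, adjusted p = 0.722), none past the threshold. Without that same mouse Cldn1 differed by -0.24 (adjusted p = 0.287).

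**Figure D5:**
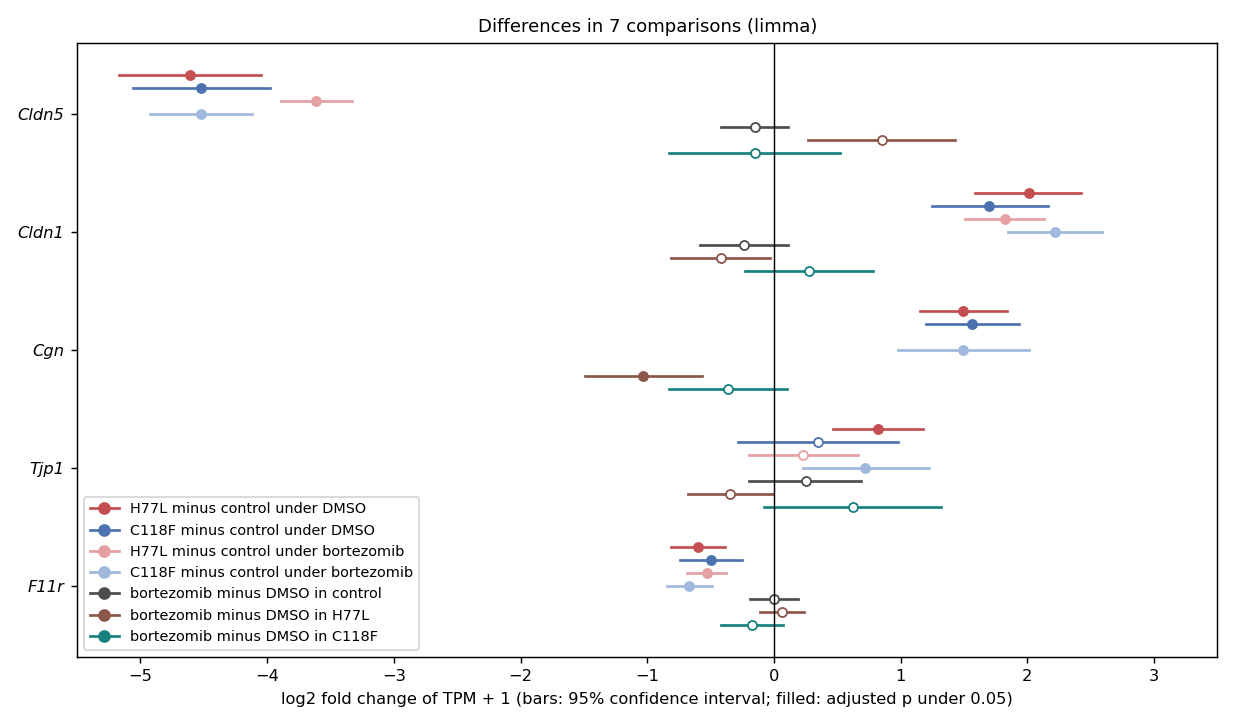
Log2 fold changes of TPM + 1 with 95% confidence intervals (limma) of the 5 expressed members in 7 comparisons, filled where the adjusted p was under 0.05. Cldn5 lies between -4.61 and -3.61 against control in the knock-in lines, and its bortezomib response is 0.85 in H77L/lox mice with an open symbol.

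The responses were then compared between genotypes by interaction. None of the 5 members was called in any of the 3 interactions, beside 0% of all genes in each (2037, 560 and 840 genes at an unadjusted p under 0.05, and 0 with limma voom). Cgn, counted among the 5, entered each of these fits only through knock-in groups where it was higher than in the other groups of the fit. The response of Cldn5 in H77L/lox mice exceeded that in control mice by 1.00 (SE 0.31, adjusted p = 0.112) and that in C118F/lox mice by 1.00 (SE 0.45, adjusted p = 0.65). The response in C118F/lox mice exceeded that in control mice by 0.00 (95% interval -0.71 to 0.71). For Tjp1, the response in H77L/lox mice was lower than in C118F/lox mice by 0.97 on the log2 scale (difference -0.97, SE 0.38, adjusted p = 0.65).

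The knock-in lines were also compared with each other, since each changes a different LIM domain of Lmx1b. Under DMSO 0 of 5 members were called, beside 0% of all genes (416 of 10809 at an unadjusted p under 0.05, and 0 with limma voom). The difference of C118F/lox from H77L/lox mice was 0.09 for Cldn5 (95% interval -0.66 to 0.85), -0.30 for Cldn1 (-0.84 to 0.24), 0.07 for Cgn (-0.28 to 0.42), -0.47 for Tjp1 (-1.10 to 0.15) and 0.10 for F11r (-0.15 to 0.35). Under bortezomib 1 of 5 members was called, beside 0.972% of all genes. Cldn5 was lower in C118F/lox than in H77L/lox mice by 0.91 (difference -0.91, SE 0.20, adjusted p = 0.0458), at 70.5 ± 24 TPM (SD, n = 5) against 130 ± 25.4 TPM (SD, n = 6), and 4 of 5 C118F/lox mice were below every H77L/lox mouse. This call was lost in 14 of 18 alternative fits (adjusted p from 0.0122 to 0.188). It was lost without H77L/lox replicates 2, 3, 4, 5 or 6 (0.0821, 0.0917, 0.101, 0.0795 and 0.111) and without C118F/lox replicates 3, 4 or 5 (0.101, 0.113 and 0.0754). Cldn1 differed by 0.40 (SE 0.14, adjusted p = 0.224), Tjp1 by 0.49 (SE 0.19, adjusted p = 0.244) and Cgn by 0.74 (SE 0.26, adjusted p = 0.219), and none passed. Cgn, counted among the 5, entered this bortezomib fit only through the C118F/lox mice, where it was higher.

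Genes of the same junctions outside the members were taken from 4 lists. Some of the genes named here passed the filter only through the groups where they were high, namely Clmp, Mpdz and Arhgef2 through both knock-in lines, Nectin1 through the H77L/lox mice, Lsr through the control mice in the H77L/lox comparison and Nectin4 through the control mice in the C118F/lox comparison. Their p-values rest on that selection. Of the 29 other claudins only Cldn12 and Cldn15 were tested. Cldn15, which forms cation pores in the gut, rose from 27.3 TPM in the mean of DMSO-treated control mice to 65.3 in H77L/lox (1.13, adjusted p = 0.00208) and 57.4 in C118F/lox mice (1.03, adjusted p = 4.58e-04). It was not called under bortezomib, with 47.7 and 37 TPM against 34. Cldn12 held 32.6, 33.2 and 24.8 TPM in these DMSO-treated groups and passed in none of these comparisons. Cldn2, Cldn8 and Cldn10, claudins of tubule segments, had medians of 2.81, 2.38 and 3.69 TPM in DMSO-treated control mice. Their maxima there were 22.2, 47.3 and 55.7 TPM, and Cldn10 was second to Cldn5 in replicate 2, the library with high distal nephron markers. In DMSO-treated H77L/lox mice the medians were 0.0589, 0.0846 and 0.376 TPM and the maxima 15.1, 6.58 and 9.28. In DMSO-treated C118F/lox mice the medians were 0.4, 1.24 and 0.372 TPM and the maxima 5.31, 6.55 and 3.95.

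Of 13 other membrane proteins of tight junctions in the table, 10 were tested, and under DMSO 4 rose and 5 fell in H77L/lox while 4 rose and 3 fell in C118F/lox mice. Over all genes, 22.4% rose and 22.4% fell in the former and 13.7% rose and 16.6% fell in the latter comparison. Under either treatment the counts include genes that passed the filter through only 1 group, 3 in H77L/lox and 2 in C118F/lox against control mice. The log2 fold changes of this list under DMSO had a median of -0.09 and -0.13, against -0.01 and -0.06 over all genes. Jam2, which encodes another junctional adhesion molecule, went from 1.74 TPM in control to 13 in H77L/lox (2.36, adjusted p = 4.22e-08) and 8.26 in C118F/lox mice (1.73, adjusted p = 2.03e-05), the opposite direction to F11r. Clmp, an adhesion protein of the same superfamily, went from 1.7 to 15.2 and 17.5 TPM (2.67 in both, adjusted p = 2.81e-06 and 1.30e-04). Igsf5, also named JAM4, went from 3.01 TPM to 8.43 in H77L/lox (1.37, adjusted p = 8.57e-04) and 8.08 in C118F/lox mice (1.28, adjusted p = 0.00558). Lsr, which encodes angulin-1 of tricellular contacts, was at 5.93 TPM in control against 1.82 in H77L/lox (-1.37, adjusted p = 0.00234) and 2.03 in C118F/lox mice (-1.17, adjusted p = 0.00232). Under bortezomib 4 rose and 3 fell in each line. Over all genes, 12.5% rose and 11% fell in H77L/lox and 15.1% rose and 12.4% fell in C118F/lox mice.

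Of 27 scaffolds and polarity proteins, 25 were tested in H77L/lox mice under DMSO, of which 5 rose and 7 fell, and 24 in C118F/lox mice, of which 5 rose and 8 fell. Over all genes, 22.4% rose and 22.4% fell in the former and 13.7% rose and 16.6% fell in the latter comparison. The counts include 4 and 3 genes that passed the filter through only 1 of the groups compared. The log2 fold changes of this list had a median of -0.10 and -0.14. Mpdz, a scaffold with many PDZ domains, rose from 1.48 TPM in control to 13.1 in H77L/lox (2.47, adjusted p = 6.06e-07) and 10 in C118F/lox mice (2.00, adjusted p = 2.16e-04). Arhgef2, a guanine nucleotide exchange factor that cingulin is known to bind, rose from 2.73 to 14.9 TPM (2.04, adjusted p = 1.68e-04) and 13.8 TPM (2.04, adjusted p = 6.86e-05). Magi2, a scaffold of the podocyte slit diaphragm, fell from 156 to 54.2 TPM (-1.52, adjusted p = 8.49e-07) and 45.7 TPM (-1.82, adjusted p = 1.29e-05). Under bortezomib 5 rose and 7 fell in H77L/lox and 5 rose and 8 fell in C118F/lox mice. Over all genes, 12.5% rose and 11% fell in the former and 15.1% rose and 12.4% fell in the latter comparison. The counts include 0 and 2 genes that passed through only 1 group. The list held 1 gene that was called for bortezomib within a genotype, Magi3 in H77L/lox mice, beside 1.16% of all genes. It fell from 17.6 to 8.51 TPM (-0.93, SE 0.21, limma adjusted p = 0.0437) and was singled out after its values were seen. Without the filter 0 of 20941 genes were called in that comparison, so this call was lost too.

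Of 17 cadherins, catenins and nectins of adherens junctions, 10 were tested in H77L/lox mice under DMSO, of which 5 rose and 2 fell, and 9 in C118F/lox mice, of which 3 rose and 2 fell. Over all genes, 22.4% rose and 22.4% fell in the former and 13.7% rose and 16.6% fell in the latter comparison. In each, 1 gene tested passed the filter through only 1 of the groups compared. The log2 fold changes of this list had a median of 0.31 and -0.14. Nectin4, an adhesion molecule of adherens junctions, fell from 25.5 TPM in control to 3.21 in H77L/lox (-2.56, adjusted p = 6.07e-07) and 2.82 in C118F/lox mice (-2.88, adjusted p = 3.46e-05). Pvr, a nectin-like receptor, rose from 7.68 to 21.8 TPM (1.28, adjusted p = 0.00122) and 24.7 TPM (1.46, adjusted p = 0.00116). Nectin1 had 0.272 TPM in control and 2.03 TPM in H77L/lox mice (1.25, adjusted p = 1.92e-04) and was not tested in C118F/lox mice. Jup, which encodes plakoglobin, rose from 158 TPM to 336 in H77L/lox (1.18, adjusted p = 6.78e-04) and 330 in C118F/lox mice (1.03, adjusted p = 0.0286). Under bortezomib 2 rose and 2 fell in H77L/lox and 2 rose and 4 fell in C118F/lox mice. Over all genes, 12.5% rose and 11% fell in the former and 15.1% rose and 12.4% fell in the latter comparison. Again 1 gene tested in each passed through only 1 group. Without the control library with high tubule markers the H77L/lox calls of the 4 lists were the same apart from Crb3. Without that library and the one with high renin the C118F/lox calls were the same apart from Prkci.

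The genes with the pattern most like each expressed member were read from Pearson's r of log2(TPM + 1) over the 35 mice among 11306 genes. These values are descriptions, since all genes share the libraries and the differences between the 6 groups. For Cldn5 they were Cdkn1c, which encodes the cell cycle inhibitor p57 of mature podocytes (r = 0.994), Hs3st6 (0.989) and Eif3m (0.978). The median of Cdkn1c went from 4970 TPM in DMSO-treated control to 240 in H77L/lox and 222 in C118F/lox mice. For Cldn1 they were Camk2a (0.932), Itga7 (0.929) and Kcnd3 (0.926), whose medians in DMSO-treated control mice were 1.08, 0.299 and 0.483 TPM. For Tjp1 they were Robo2 (0.894), Myof (0.883) and Ptpn13 (0.883). For F11r they were Gm266 (0.919), Gpsm3 (0.909) and Ldaf1 (0.908). For Cgn they were Crct1 (0.934), S100a6 (0.917) and Gucy2g (0.917), and the median of Crct1 in H77L/lox mice was 375 TPM under DMSO and 14.2 TPM under bortezomib.

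The remaining members lie on other chromosomes of GRCm39. F11r is at chr1:171265092-171292958 on the plus strand, Tjp1 at chr7:64945898-65177529 and Cgn at chr3:94667376-94695136 on the minus strand, and Ocln at chr13:100630334-100689535 on the minus strand. Cldn3 and Cldn4 are neighbours at chr5:135015068-135016326 on the plus and chr5:134973973-134975788 on the minus strand. Cldn7, at chr11:69852648-69858711 on the plus strand, overlaps the protein-coding gene Elp5 on the minus strand, and Cldn1 overlaps the long non-coding RNA gene Gm41436 on the opposite strand. Cldn3, Ocln, F11r and Cgn likewise overlap long non-coding RNA genes on the opposite strand. Tjp1 overlaps 6 annotated genes, some on its own and some on the opposite strand. Whether the authors' counting used strand is not given in the sources used here, so that reads of such pairs could not be told apart.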

How the data were processed

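RNA of sorted podocytes from 35 mice was sequenced as single-end poly(A) libraries made with a SMART-Seq kit. The authors trimmed reads with Trim Galore, aligned them with STAR to GRCm39, counted them with featureCounts and deposited TPM values per gene. The TPM steps gave whole reads for 23943 of 23943 expressed genes (100%, tolerance 1e-12), and limma voom was run on those reads as an alternative. Floors of 3 reads cover counting error only, whereas the 95% intervals are those of limma over mice.

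Groups followed the labels. Replicates were separate mice. The main test was limma 3.58.1 in R 4.3.3 on log2(TPM + 1), with an intensity trend, over genes above 1 TPM in every mouse of at least 1 group compared. Only the groups compared entered each of 12 comparisons, and p-values were adjusted after Benjamini and Hochberg over all genes tested, with calls under 0.05. TPM + 1 understates changes of low genes. The fits were tested on simulated data. Gene positions and promoter windows came from GENCODE vM39 on GRCm39. Alternatives comprised 7 settings and leaving out each mouse. Named were all members and the 3 genes with the highest r to each expressed member. Of each further list, the 3 genes with the largest absolute change among its calls against control under DMSO were named, separately for each knock-in line. Genes named outside this rule include Magi3 and Cldn12, Cldn2, Cldn8 and Cldn10, of which these claudins were not called. Members and lists were chosen with earlier results of these data known.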

Additional observations from a re-analysis of the deposited data

Results flagged for a closer look

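Of 53 sets of values (1 gene in 1 group), 15 held a mouse far from the others by Dixon's criterion. Its rate of about 5% by chance assumes normally distributed values, which sets with many values of 0 are not. No excess over chance can therefore be read from this count. Replicate 6 of the DMSO-treated H77L/lox mice had the lowest Cldn5 of its group (25 TPM, the others 74.5 to 100), the highest Cldn1 (187 TPM, the others 70.4 to 95.2) and the highest Cldn3 (1.49 TPM, the others up to 0.405). Without it, Cldn5 in H77L/lox against control mice under DMSO fell by 4.32 on the log2 scale and Cldn1 rose by 1.82. Tjp1 was at 623 TPM in replicate 2 of the DMSO-treated H77L/lox mice (the others 358 to 427) and at 276 TPM in replicate 1 of the bortezomib-treated C118F/lox mice (the others 494 to 552).

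The other such values were of genes with few reads. Replicate 2 of the DMSO-treated control mice held 1.89 TPM of Cldn4 and 8.3 of Cldn7, and replicate 2 of the bortezomib-treated control mice held 5.77 and 5.29 TPM of these genes. Cldn3 was at 1.11 TPM in replicate 1 of the DMSO-treated C118F/lox mice and at 0.154 TPM in replicate 6 of the bortezomib-treated H77L/lox mice. Cldn4 was at 0.682 TPM in replicate 4 of the bortezomib-treated H77L/lox mice and at 1.13 TPM in replicate 2 of the bortezomib-treated C118F/lox mice. Cldn7 was at 2.31 TPM in replicate 1 of the DMSO-treated H77L/lox mice, and Ocln at 0.902 TPM in replicate 4 of the DMSO-treated C118F/lox mice.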

How the results depend on the processing

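No paired analysis was possible because the labels give the groups no shared replicate numbers. Cldn5, Cldn1 and F11r kept their direction and their calls against control in both lines and treatments under each of the 7 settings and without any single mouse. The causes of the following changes were not tested. With the mouse number as covariate, Tjp1 was -0.07 in C118F/lox against control mice under DMSO and -0.07 in H77L/lox mice under bortezomib, F11r was 0.05 for bortezomib in control mice (-0.03 to 0.04 leaving out single mice) and Cldn5 was 0.29 for bortezomib in C118F/lox mice (-0.30 to 0.05). In C118F/lox against H77L/lox mice under DMSO, leaving out single mice gave -0.20 to 0.21 for Cldn5 and -0.01 to 0.13 for Cgn. The bortezomib response of C118F/lox minus control mice was -0.06 for Cldn5 with scaling between mice and -0.07 with voom (-0.15 to 0.20 leaving out single mice), and 0.18 for Cgn with pseudocount 0.1 and 0.20 with voom (-0.17 to 0.10).

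The 1 member called for bortezomib in H77L/lox mice became 0 without a filter and without an intensity trend (0 to 1 leaving out single mice). The 1 called between the lines under bortezomib became 0 with pseudocount 0.1, no filter, scaling, all 35 mice, the mouse number or no trend (0 to 2). Members past the cutoffs of the study numbered 3, 2, 1 and 3 with pseudocount 0.1 in H77L/lox and C118F/lox mice under DMSO and then bortezomib, and 1 in H77L/lox mice under DMSO with the mouse number (1 to 2). Over all genes, 4907 calls in H77L/lox against control mice under DMSO became 2873 with the mouse number. The 125 for bortezomib in H77L/lox mice became 0 without a filter (0 to 270), and the 105 between the lines under bortezomib became 13 (35 to 279). The 0 for bortezomib in C118F/lox mice became 31 with all 35 mice, and the 0 for the response of H77L/lox minus control became 3 without a trend (0 to 275). The fits without the libraries high in tubule markers and renin were chosen after seeing the data.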
